A study of Mus musculus with 12 samples.

Results

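The miR-30 family was followed in mouse liver over 2 days. The members were the 5 array entries named mmu-miR-30a, mmu-miR-30b, mmu-miR-30c, mmu-miR-30d and mmu-miR-30e, without a star, chosen by name alone from 650 entries on the array. Of these 650 entries, 139 were detected on at least 6 arrays and tested, all 5 members among them. The study hybridised 12 one-colour (Cy3) miRNA arrays, 1 for each collection time from ZT18 to ZT62 at steps of 4 h. ZT is Zeitgeber time, in hours counted from a lights-on at ZT0. Every array carried liver RNA of adult mice that lived under 12 h of light and 12 h of darkness and could eat and drink at will, and each time was a pool of 2 livers. The labels name no strain, sex, genotype or agent. The light group held the pools of ZT26, ZT30, ZT34, ZT50, ZT54 and ZT58, and the dark group those of ZT18, ZT22, ZT38, ZT42, ZT46 and ZT62. The first cycle ran from ZT18 to ZT38 and the second from ZT42 to ZT62, so that each of 6 clock times was sampled on both days. A pool hides the difference between its livers, and the p-values given here measure only the spread between pools.

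MicroRNAs are short RNAs that guide Argonaute proteins to messenger RNAs, mostly in their 3′ untranslated regions, and lower the stability or translation of those messages. Target choice rests mainly on the seed, bases 2 to 8 of the mature strand, so members of a family with 1 seed share many predicted targets. The miR-30 family is abundant in epithelia and has been linked to hepatobiliary development. Among its members, miR-30a is known to repress Beclin 1, an autophagy factor, and miR-30c to repress microsomal triglyceride transfer protein, which loads lipid onto lipoproteins secreted by the liver. The genes lie in pairs, and in the RefSeq annotation of GRCm38.p6 Mir30a neighboured Mir30c-2 on chromosome 1, Mir30c-1 neighboured Mir30e on chromosome 4 inside the gene Nfyc, and Mir30b neighboured Mir30d on chromosome 15. In each pair, 0 annotated genes lay wholly between both members. A mouse liver clock drives the daily transcription of many metabolic genes, and sampling every 4 h asks which miRNAs follow the time of day.

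The mature sequences are shown because the seed defines the family and the remaining bases are all that separates the array's targets. They were taken from RefSeq (GRCm38.p6), which gave a sequence for 3 of the 5 members, and the capitals mark the seed.
mmu-miR-30a: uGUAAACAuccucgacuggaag
mmu-miR-30c: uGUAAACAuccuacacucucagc
mmu-miR-30e: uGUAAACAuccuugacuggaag
The first strand lies at chr1:23272274-23272295 on the plus strand. The mmu-miR-30c strand is encoded at chr1:23291714-23291736 on the plus strand and at chr4:120769584-120769606 on the minus strand, so its signal cannot be assigned to either gene. The mmu-miR-30e strand lies at chr4:120772660-120772681 on the minus strand. The 3 strands share their first 12 bases. Counted from the 5′ end, mmu-miR-30a and mmu-miR-30e differ at 1 of 22 positions (C13U), whereas mmu-miR-30a and mmu-miR-30c differ at 5 (C13A, G14C, G18C, G19U and A20C). Among 1679 mouse mature names in the table, 4 carry the seed GUAAACA, and the fourth is mmu-miR-384-5p. That miRNA was on the array and was detected on 0 of 12 arrays. The opposite strands of Mir30a and Mir30e, called mmu-miR-30a* and mmu-miR-30e* on the array, carry another seed and differ from each other at 1 position (G18A).
mmu-miR-30a*: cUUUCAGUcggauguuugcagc
mmu-miR-30e*: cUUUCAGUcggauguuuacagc

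Spot signals were scaled between arrays, and values are given in scaled intensity units, where 22.2 is the floor under which dim signals were set. Between 132 and 162 entries were called detected on an array, and the scaling divisors lay between 0.910 and 1.16, the highest at ZT38. The number of arrays limits the precision, since each clock time has only 2. The labelled tissue matched its markers: all 5 hepatocyte miRNAs of the marker list (miR-122, miR-192, miR-194, miR-148a and miR-22) were detected on all 12 arrays, and their summed intensity spanned 38642 to 42704 on light and 38764 to 42554 on dark arrays. Of other cell types, 3 of 4 leukocyte, 2 of 3 red cell, 2 of 2 endothelial and 3 of 5 mesenchymal markers were detected on all arrays. The 4 striated muscle, 3 neuronal and 4 pancreatic markers were detected on 0 arrays. In whole liver RNA, fewer cells of a type and less RNA per cell cannot be told apart.

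All 5 members were detected on every array and never lay at the floor. Each had a nearly level course over the 2 days. On light arrays mmu-miR-30a had a lowest, median and highest intensity of 1007, 1025 and 1083, against 969, 1021 and 1062 on dark arrays. Its groups overlapped over most of their range, and the highest pool (ZT34) exceeded the lowest (ZT38) 1.12-fold. For mmu-miR-30b the light arrays read 422, 437 and 465 and the dark arrays 422, 434 and 461. Its extremes were ZT30 and ZT62, 1.10-fold apart, and the groups covered nearly the same range.

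The light arrays of mmu-miR-30c lay close together, at 799, 816 and 825. Its dark arrays read 725, 814 and 903, so both its lowest pool (ZT38) and its highest (ZT22) were dark, 1.25-fold apart. The probe of mmu-miR-30d read 99.8, 103 and 118 on light and 91.6, 101 and 106 on dark arrays. A single light pool, ZT50, stood above all others, and ZT38 stood below them. For mmu-miR-30e the light arrays read 322, 338 and 361, and the dark arrays 310.3, 336 and 340.0. The dark values reached only up to about the light median, and the groups overlapped. Levels were not ranked between members, since each is read by other probes.

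**Figure D1:**
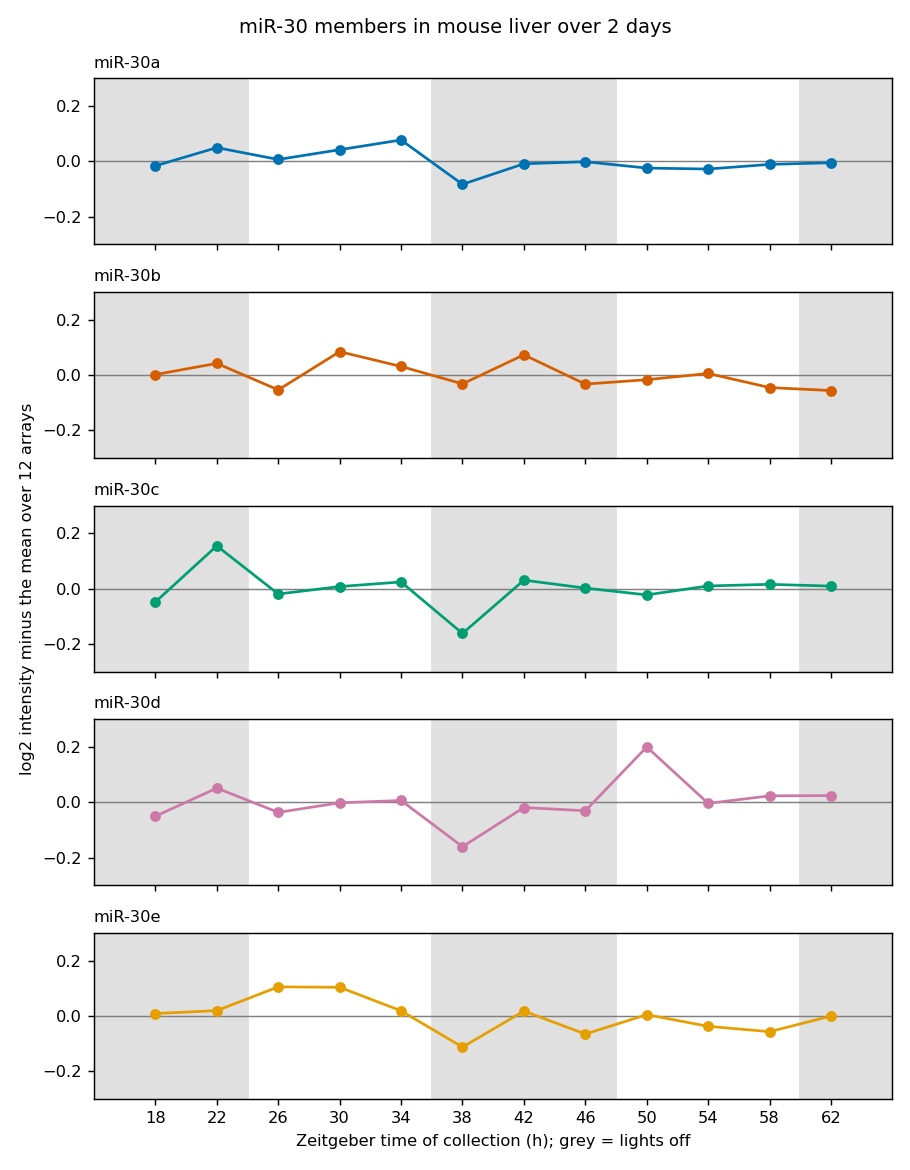
Log2 scaled intensity of each miR-30 member minus its mean over 12 arrays (vertical axis, log2 units) against Zeitgeber time of collection (horizontal axis, h). Each point is 1 pool of 2 livers and grey marks lights off; the points stay near 0, with ZT38 the lowest pool of 4 of the 5 members under this scaling, but of none without scaling, and ZT50 the highest of miR-30d.

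The scaling bears on the spread of mmu-miR-30a: on 8 of 12 arrays a dimmer probe of this miRNA was itself the probe at the percentile used for scaling, and so has the same scaled value there. The SD over the 12 pools was 0.04 on the log2 scale for mmu-miR-30a (n = 12), or 2.92% of the intensity. It was 0.05 for mmu-miR-30b, 0.07 for mmu-miR-30c, 0.08 for mmu-miR-30d and 0.06 for mmu-miR-30e. The median over members was 0.06, compared with 0.10 over all 139 tested entries and over the 109 that never lay at the floor. Of those 109 entries, 1 had a lower SD than mmu-miR-30a, and 39 had a lower SD than mmu-miR-30d. Dim entries spread more, so each member was also set beside the 20 other entries nearest to it in mean intensity. Among these 20, an SD below the member's was found for 1 entry beside mmu-miR-30a, 0 beside mmu-miR-30b, 10 beside mmu-miR-30c, 2 beside mmu-miR-30d and 3 beside mmu-miR-30e. With the miR-30 probes left out of the scaling, the counts were 4, 2, 16, 6 and 11 of 20 in the same order, and 8 of 108 entries never at the floor had a lower SD than mmu-miR-30a, whose SD was then 0.05. With scaling to the median of detected probes they were 12, 11, 13, 3 and 11. The rank of the members' spread thus depended on the scaling, and these counts carry no test.

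**Figure D2:**
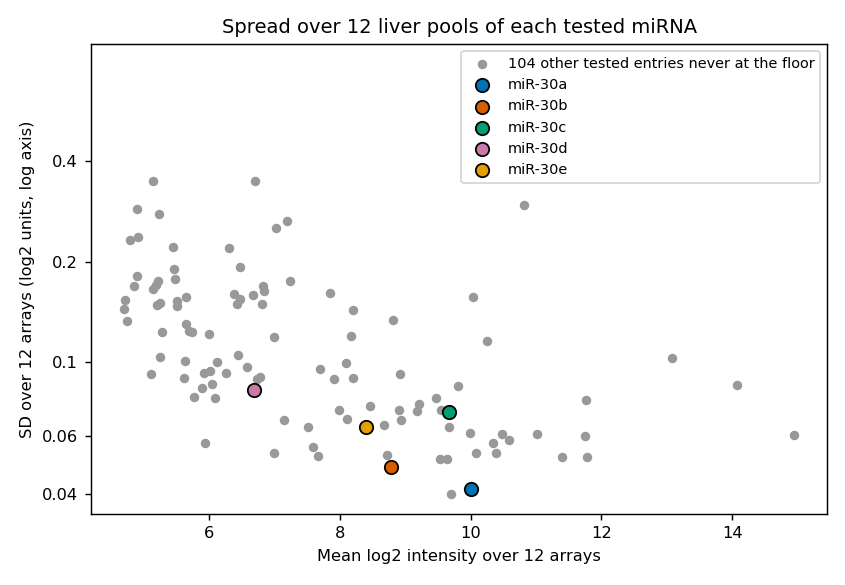
SD over 12 arrays (vertical log axis, log2 units) against mean log2 intensity (horizontal axis) for the 109 tested entries never at the floor, 1 point each. The 5 coloured members lie between 0.04 and 0.08, with miR-30c at the middle for its intensity; the scaling rested on a probe of miR-30a on 8 arrays, and the members' rank in SD changes with the scaling.

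The main question of the sampling was whether the members follow a 24-h cycle, and none of the 5 passed that test. A 24-h cosine curve of free phase was fitted to each entry with limma, and the fold from peak to trough was taken from the fit. The fitted fold was 1.02 for mmu-miR-30a, with an upper 95% limit of 1.10. It was 1.01 for mmu-miR-30b (upper limit 1.10), 1.05 for mmu-miR-30c (1.18) and 1.06 for mmu-miR-30e (1.17). The widest was that of mmu-miR-30d, at 1.08 with an upper limit of 1.23. Adjusted p-values (limma F test, Benjamini-Hochberg over 139 entries) ran from 0.957 to 1 over the members. Of all 139 entries 0 passed (percent called 0), and 5 (3.6%) had an unadjusted p under 0.05 without a member among them. The median fitted fold was 1.05 over the members and 1.07 over the entries never at the floor. The upper limit lay under 1.25 for 5 of 5 members and for 54 of those 109 entries, with medians of 1.17 and 1.25. Entries were not matched for intensity in these comparisons, and dim entries spread more. The limit was also low for some bright entries outside the family, at 1.09 for mmu-miR-16 and 1.14 for mmu-miR-122. It was 2.04 for mmu-miR-451, which was bright as well. The scaling behind the limits rested on a probe of mmu-miR-30a on 8 of 12 arrays. These limits hold for the scaling used: scaling on all probes gave fitted peak-to-trough values of 0.35 to 0.42 (log2) for the members, with a median of 0.39 over all entries in place of 0.11, and an adjusted p of 0.869 for each (limma). That setting divided arrays by the upper quartile of all 1857 probes, while only 16.5% to 19.6% of an array's spots were well above background. Under it the median SD over entries never at the floor was 0.48 (log2), in place of 0.10 with the scaling used. Normexp background correction gave mmu-miR-30d 0.53 (log2).

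The difference between dark and light was as small. Dark over light, the fold was 0.985 for mmu-miR-30a (95% interval 0.950 to 1.02), with log2 means of 10.01 ± 0.04 in light and 9.99 ± 0.04 in dark (SD, n = 6 each). It was 0.999 (0.956 to 1.04) for mmu-miR-30b and 0.997 (0.935 to 1.06) for mmu-miR-30c. For mmu-miR-30d it was 0.958 (0.893 to 1.03), with log2 means of 6.71 ± 0.08 and 6.65 ± 0.07 (SD, n = 6 each). For mmu-miR-30e it was 0.969 (0.919 to 1.02), with log2 means of 8.41 ± 0.07 and 8.37 ± 0.05 (SD, n = 6 each). All 6 of its 6 dark pools lay below the light mean, a count that was not taken over all entries. All 5 folds lay below 1, as did those of 66.2% of the 139 entries, but scaling on all probes put all 5 above 1 (log2 0.37 to 0.43) along with the median of all entries (0.38 in place of -0.02), and no scaling put all but mmu-miR-30d above 1.

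None of these differences exceeded the spread between pools. The adjusted p of the members ran from 0.740 to 1 (limma, Benjamini-Hochberg over 139 entries). Over all entries 0 passed (percent called 0), the smallest adjusted p being 0.355, and 11 (7.91%) had an unadjusted p under 0.05, 0 of them members. The intervals of the 5 members together spanned folds from 0.893 (mmu-miR-30d) to 1.06 (mmu-miR-30c).

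**Figure D3:**
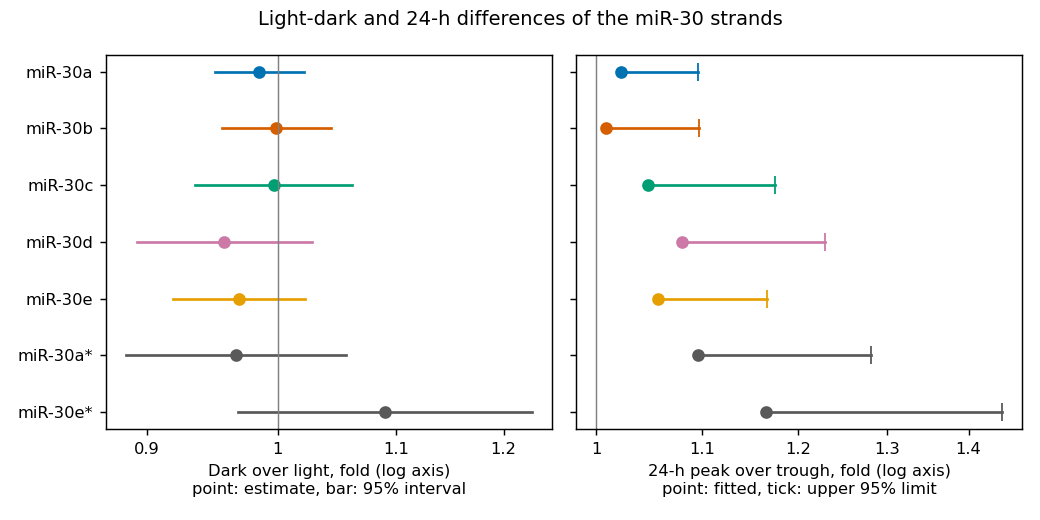
Left, dark over light fold (log axis) with its 95% interval from limma over 6 dark and 6 light arrays; right, fitted 24-h peak over trough fold (log axis) with its upper 95% limit, for the 5 members and 2 opposite strands. Every interval on the left spans 1, and miR-30e* has the widest on both sides; scaling on all probes moves the left points of all 5 members and of miR-30a* above 1.

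A pattern of any shape over the 6 clock times was tested next, and no member passed. The fold between the highest and the lowest clock time was 1.05 for mmu-miR-30a and 1.06 for mmu-miR-30b. It was 1.11 for both mmu-miR-30c and mmu-miR-30d, and 1.08 for mmu-miR-30e. Adjusted p-values ran from 0.805 to 0.881 (limma F test). Scaling on all probes widened the members' spans to between 0.65 and 0.82 (log2), with a median of 0.69 over all entries in place of 0.20, and normexp that of mmu-miR-30d to 0.92, again without a call. Across all entries 0 passed (percent called 0), and 6 (4.32%) had an unadjusted p under 0.05, 0 of them members. The pools of 1 clock time taken 24 h apart show how well a day repeats. At clock time 6, the middle of the light phase, mmu-miR-30c read 816 on day 1 and 817 on day 2, and mmu-miR-30d read 102 on both. At clock time 14, early in the dark phase, mmu-miR-30c read 725 at ZT38 and 816 at ZT62, and mmu-miR-30d 91.6 and 104. At clock time 22, mmu-miR-30c read 903 at ZT22 and 812 at ZT46. The high and the low pool of mmu-miR-30c therefore each had a partner of the same clock time near the mean. For mmu-miR-30e both pools of clock time 2 were above its mean of 336, at 361 and 337, and those of clock time 14 were at 310.3 and 335.

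The days did not differ beyond the spread either. The second cycle over the first gave a fold of 0.982 for mmu-miR-30a, 0.983 for mmu-miR-30b and 0.968 for mmu-miR-30e. It gave 1.01 for mmu-miR-30c and 1.05 for mmu-miR-30d. Scaling on all probes put all 5 below 1, between -0.58 and -0.47 (log2) with a median of -0.50 over all entries, and gave 44 entries an unadjusted p under 0.05, mmu-miR-30b (adjusted p 0.118 by limma) among them. Normexp background correction turned mmu-miR-30b and mmu-miR-30e above it. Adjusted p-values ran from 0.866 to 0.927 (limma, with clock time in the model). Of all entries 0 passed (percent called 0), and 5 (3.6%) had an unadjusted p under 0.05, 0 of them members. Cycle is partly confounded with the slide, since ZT18 to ZT46 lay on slide 1 and ZT50 to ZT62 on slide 2. Whether the dark-light difference itself changed between days was tested as an interaction. The fold of folds was 1.05 for mmu-miR-30a, 1.02 for mmu-miR-30b, 1.025 for mmu-miR-30c and 1.09 for mmu-miR-30e, and 0.973 for mmu-miR-30d. Each member had an adjusted p of 0.951 (limma), 0 of 139 entries passed (percent called 0), and 3 (2.16%) had an unadjusted p under 0.05, 0 of them members.

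The pool of ZT38 stood apart for most of the family. It was the lowest of the 12 for mmu-miR-30a, mmu-miR-30c, mmu-miR-30d and mmu-miR-30e, and mmu-miR-30b also lay below its mean there. The mean deviation of the 5 members from their own means was -0.11 (log2) at ZT38, and the median deviation of all tested entries on that array was -0.06. ZT38 was also the lowest array for 21.1% of the 109 entries never at the floor, and it had the largest scaling divisor. The low values depended on the scaling: ZT38 was also lowest for those 4 members with the miR-30 probes left out of it, but only for mmu-miR-30c and mmu-miR-30d with the median of detected probes, only for mmu-miR-30c after quantile normalization, and for none without scaling, where all 5 lay above their means at ZT38. At ZT22 all 5 members lay above their means, by 0.06 on average, where the median of all entries was 0 and 23.9% of the 109 entries had their highest value. All 5 also lay above their means at ZT34, by 0.03 on average, where the median of all entries was 0.05.

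The members varied together only loosely under the scaling used. Pearson's r over the 12 arrays was positive for 10 of 10 pairs of members, from 0.0685 (mmu-miR-30b with mmu-miR-30d) to 0.732 (mmu-miR-30a with mmu-miR-30c). Its median was 0.409, against 0.184 over the 5886 pairs of entries never at the floor, of which 68.8% were positive. Pairs share the arrays' scaling, so r is not expected to centre on 0. That scaling rested on a probe of mmu-miR-30a on 8 of 12 arrays. Without the miR-30 probes in it, the members' median r was 0.556, against 0.0956 over all pairs never at the floor. With the scaling used, none of the 10 pairs passed (permutation test of 100000 shuffles, adjusted over 8778 pairs of tested entries). Of all pairs, 41 passed (0.467%). An unadjusted p under 0.05 was found for 2 of the 10, compared with 11.2% of all pairs. For mmu-miR-30a with mmu-miR-30c, Spearman's rho was 0.524, and the permutation p was 0.0151 for r (adjusted 0.294) and 0.0856 for rho (adjusted 0.608). For mmu-miR-30a with mmu-miR-30e, r was 0.624 and rho 0.685, with permutation p of 0.0296 (adjusted 0.373) and 0.0179 (adjusted 0.421). These strands differ at 1 of 22 positions, and whether the probes of one also read the other was not tested.

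The agreement was smaller without ZT38. Without that array the median r of the 10 pairs was 0.240, with a range from -0.112 to 0.519, and the median over all pairs never at the floor was 0.142. Without the 2 arrays farthest from the median of the first member of each pair, it was 0.140, from -0.180 to 0.656, and r was 0.536 for mmu-miR-30a with mmu-miR-30e. The highest, 0.656, was that of mmu-miR-30a with mmu-miR-30c, and became 0.369 when the 2 arrays extreme for mmu-miR-30c were left out instead. With the miR-30 probes left out of the scaling, the median r of the 10 pairs was 0.556, from 0.180 to 0.794, against 0.0956 for all pairs never at the floor, and none of the 10 passed; this scaling was chosen for correlations after seeing the data. Within the 8 arrays of slide 1 the median was 0.579 against 0.230 for all pairs, and the highest r was 0.957, for mmu-miR-30c with mmu-miR-30d (exact permutation p 0.000471, adjusted 0.207). Over all slides, r of that pair was 0.118 without ZT38 and 0.908 without ZT50. No value was computed within slide 2, which held 4 arrays. Members whose genes are neighbours lay at both ends of the order: r was 0.732 for mmu-miR-30a with mmu-miR-30c, 0.383 for mmu-miR-30c with mmu-miR-30e, and 0.0685 for mmu-miR-30b with mmu-miR-30d, whose rho was 0.0839 (permutation p 0.838 and 0.799, adjusted 0.973 and 0.980).

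**Figure D4:**
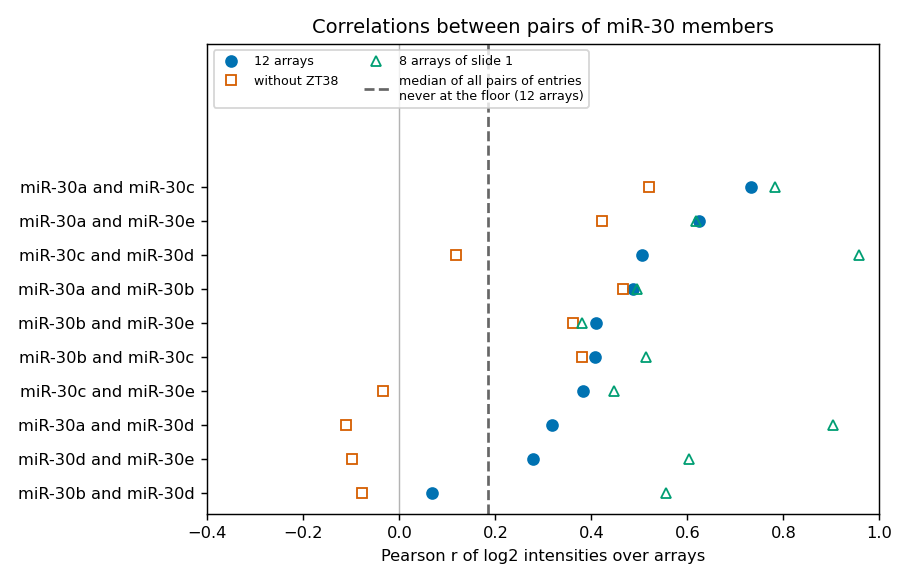
Pearson r of log2 intensities for each of 10 pairs of members, over 12 arrays (filled circles), without ZT38 (open squares) and over the 8 arrays of slide 1 (triangles); the dashed line is the median of all pairs never at the floor, 0.184. All filled circles lie above 0, and 4 squares lie below it.

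Ratios within an array do not depend on the scaling between arrays. The SD of the log2 ratio of a pair of members over 12 arrays lay between 0.05 (mmu-miR-30a to mmu-miR-30b) and 0.09 (mmu-miR-30b to mmu-miR-30d), with a median of 0.07. Over the 5886 pairs of entries never at the floor the median was 0.15. Those pairs were not matched to the members in intensity, and dim entries spread more. These medians therefore cannot show whether the members' ratios are unusually constant. The ratio of mmu-miR-30a to mmu-miR-30d was lowest at ZT50, 0.22 below its mean on the log2 scale, and that of mmu-miR-30c to mmu-miR-30d was also lowest there, by 0.22. The mean log2 ratio of mmu-miR-30a to mmu-miR-30c differed by -0.02 between dark and light, with an SD of 0.04 in light and 0.06 in dark (n = 6 each). That of mmu-miR-30b to mmu-miR-30d differed by 0.06, with an SD of 0.10 in light and 0.08 in dark (n = 6 each). These differences lay inside the spread between pools. They were not tested.

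Several probes read each member, which gives further readings of a profile on the same RNA. There were 3 probes for mmu-miR-30a and 2 for each other member, all detected on 12 arrays. The 2 probes of mmu-miR-30d followed each other closely, with r of 0.952 and rho of 0.825 (permutation p 0.000180 and 0.00147, adjusted 0.000464 and 0.00352), and both showed ZT38 lowest and ZT50 highest. Without those 2 arrays r was 0.670. Those of mmu-miR-30c gave r of 0.867 and rho of 0.594 (permutation p 0.00585 and 0.0453, adjusted 0.00891 and 0.0586), with ZT22 highest and ZT38 lowest in both, and r of 0.119 without the 2 most extreme arrays. Under this scaling, the relation of mmu-miR-30c rests on those arrays.

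The other members' probes shared less under this scaling. For mmu-miR-30e r was 0.160 and rho 0.238 (permutation p 0.619 and 0.456, adjusted 0.628 and 0.470), and its second probe read dark over light at 0.925 where the first read 0.969. For mmu-miR-30b r was 0.538 and rho 0.713 (permutation p 0.0721 and 0.0124, adjusted 0.0819 and 0.0191). For mmu-miR-30a, probe 2 was the one at the scaling percentile on 8 arrays, where its profile is fixed by the scaling. Its r was 0.636 with probe 1 and 0.584 with probe 3, with rho of 0.470 and 0.316 (permutation p 0.0405 and 0.0655 for r, adjusted 0.0493 and 0.0757), and r became 0.147 and -0.452 without the 2 most extreme arrays. Probes 1 and 3 had r of 0.0808 and rho of 0 (permutation p 0.805 and 1, adjusted 0.805 and 1). Of the 7 probe pairs of members, 3 passed on r (adjusted over 67 probe pairs of tested miRNAs), against 55 of 67 (82.1%) over all, and the median r was 0.584 against 0.842.

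The probes were also compared with the miR-30 probes left out of the scaling, an alternative chosen for correlations after seeing the data. Then 5 of 7 passed, against 57 of 67 (85.1%), and the median r was 0.754 against 0.809. For mmu-miR-30a, r was 0.788 between probes 1 and 2 and 0.754 between probes 2 and 3, with rho of 0.769 and 0.727 (permutation p 0.00249 and 0.00461 for r, adjusted 0.00439 and 0.00753), and r of 0.647 and 0.459 without the 2 most extreme arrays. Between its probes 1 and 3, r was 0.395 and rho 0.531 (permutation p 0.206 and 0.0796, adjusted 0.216 and 0.0919). For mmu-miR-30c r was 0.885, and 0.537 without the 2 most extreme arrays. For mmu-miR-30d r was 0.968, and 0.934 without ZT38 and ZT50. The probes of mmu-miR-30b had r of 0.675 and rho of 0.601 (permutation p 0.0156 and 0.0427, adjusted 0.0209 and 0.0533). Their r was 0.412 without the 2 most extreme arrays. The probes of mmu-miR-30e remained apart, at r of 0.0630 and rho of 0.0350 (permutation p 0.846 and 0.921). The next values return to the scaling used elsewhere, with the miR-30 probes in it. There, the scatter between spots of a probe alone would give the brightest probes an SD of 0.03 to 0.04 (log2) between arrays. The SD measured was 0.04 to 0.08. Per member, the SD from spots and the SD measured were closest for mmu-miR-30a, at 0.037 and 0.042. They were 0.028 and 0.048 for mmu-miR-30b, and 0.030 and 0.071 for mmu-miR-30c. For mmu-miR-30d they were 0.040 and 0.082, and for mmu-miR-30e 0.042 and 0.064. With the miR-30 probes left out of the scaling, the SD measured was 0.051 for mmu-miR-30a and 0.052 for mmu-miR-30b. It was then 0.079 for mmu-miR-30c, 0.087 for mmu-miR-30d and 0.077 for mmu-miR-30e.

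**Figure D5:**
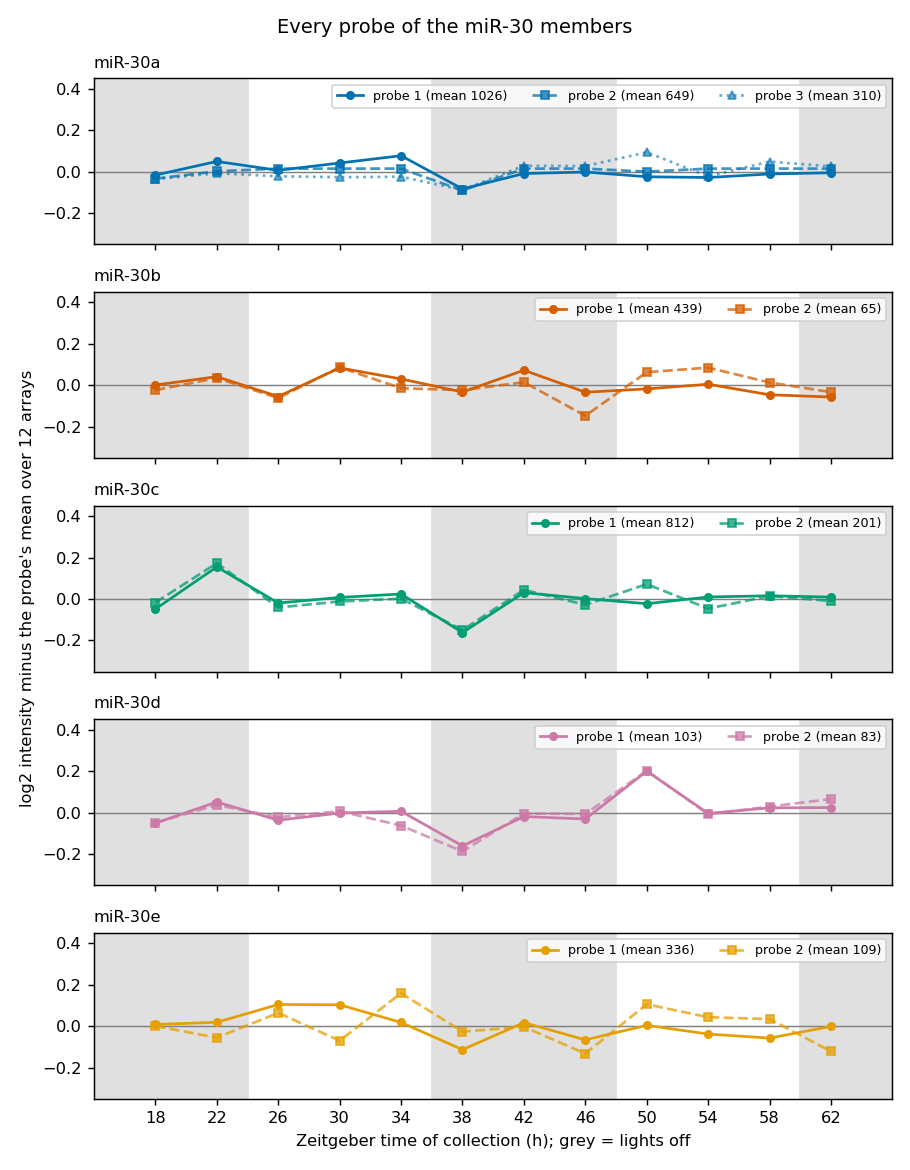
Log2 scaled intensity of every probe of the 5 members minus that probe's mean over 12 arrays (vertical axis, log2 units) against Zeitgeber time (horizontal axis, h); legends give each probe's mean intensity and grey marks lights off. The probes of miR-30c and miR-30d lie close together at ZT22 and ZT38, while those of miR-30e cross.

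Of the opposite strands of the hairpins, 5 were on the array, and their levels are not set against those of the members. Among them, mmu-miR-30a* and mmu-miR-30e* were detected on 12 arrays and mmu-miR-30c-2* on 7. The other two, mmu-miR-30b* and mmu-miR-30c-1*, were detected on 1 and 2 arrays and lay at the floor throughout. On light arrays mmu-miR-30a* had a lowest, median and highest intensity of 62.4, 70.1 and 82.2, and on dark arrays 63.5, 68.2 and 72.9. Its highest pool was ZT50, as for mmu-miR-30d and for 20.2% of the 109 entries never at the floor. The second probe of mmu-miR-30a*, detected on 11 arrays, did not share that peak. At ZT50 it deviated from its own mean by -0.07 (log2), where the first probe deviated by 0.25. For mmu-miR-30e* the light arrays read 36.6, 44.2 and 47.9, and the dark arrays 44.8, 45.8 and 56.1. The lowest dark pool lay above the light median, but the groups overlapped. The signal of mmu-miR-30c-2* was above the floor on 1 array only, at 34.1 on ZT50, so its profile rests on that pool.

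None of these strands passed a test between groups or times. Dark over light was 1.09 for mmu-miR-30e* (95% interval 0.968 to 1.23, adjusted p 0.740 by limma), with 6 of 6 dark pools above the light mean. Its light pools ZT26 and ZT34, at 47.8 and 47.9, nevertheless exceeded every dark pool except ZT62. Its second probe was detected on 0 arrays. The guide mmu-miR-30e had 6 of 6 dark pools below its light mean. Such counts were not taken over all entries. Normexp background correction turned the sign of mmu-miR-30e*, and scaling on all probes that of mmu-miR-30e. The difference between the strands was not tested. The mean log2 ratio of mmu-miR-30e to mmu-miR-30e* was 0.17 lower in dark than in light, with an SD of 0.17 in light and 0.12 in dark (n = 6 each). For mmu-miR-30a* the fold was 0.967 (0.885 to 1.06), and its second probe read 1.06. Neither correlation between strands of 1 hairpin passed. For mmu-miR-30a with mmu-miR-30a*, r was 0.0701 and rho 0.0629 (permutation p 0.821 and 0.851, adjusted 0.971 and 0.984). For mmu-miR-30e with mmu-miR-30e* they were -0.0914 and 0.238 (permutation p 0.786 and 0.455, adjusted 0.963 and 0.905). Some probes of the same guide also correlated weakly, with r of 0.0808 for probes 1 and 3 of mmu-miR-30a and 0.160 for those of mmu-miR-30e. A low r between strands therefore cannot decide whether they vary together.

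The entries most like each member over the 12 arrays were named by Pearson's r among the 132 other entries that vary. For mmu-miR-30c they were mmu-miR-194 (r 0.887, rho 0.720) and mmu-miR-23b (0.833 and 0.748). The first was the only pair of a member with an entry named here that passed, with an adjusted permutation p of 0.0473 on r and 0.359 on rho (unadjusted 0.000210 and 0.0102). Without the 2 arrays most extreme for mmu-miR-30c, r was 0.697 for mmu-miR-194 and 0.277 for mmu-miR-23b. For mmu-miR-30a they were mmu-miR-192 (r 0.872, rho 0.741, adjusted permutation p 0.0816 and 0.326) and mmu-miR-345-5p (0.751 and 0.797). Both mmu-miR-192 and mmu-miR-194 belong to the hepatocyte marker list. The nearest entries were mmu-miR-199a-5p (r 0.739, rho 0.853) and mmu-miR-223 (0.705 and 0.734) for mmu-miR-30b, from the mesenchymal and leukocyte lists. They were mmu-miR-30a* (0.824 and 0.573) and mmu-miR-140 (0.813 and 0.650) for mmu-miR-30d. They were mmu-miR-193 (0.634 and 0.552) and mmu-miR-720 (0.503 and 0.301) for mmu-miR-30e. Without the 2 arrays most extreme for the member, r was 0.622 and 0.655 for the entries of mmu-miR-30a in the order named, 0.849 and 0.837 for those of mmu-miR-30b, 0.279 and 0.490 for those of mmu-miR-30d, and 0.286 and -0.0574 for those of mmu-miR-30e. Among the opposite strands, mmu-miR-30a* was most like mmu-miR-140 (r 0.909, rho 0.867), which passed on r with an adjusted permutation p of 0.0402 (0.121 on rho) and had r of 0.70 without the 2 most extreme arrays. It did not pass with the miR-30 probes left out of the scaling (r 0.894, adjusted permutation p 0.0878). The best-ranking other member stood at rank 3 for mmu-miR-30a, at rank 12 for mmu-miR-30b, 7 for mmu-miR-30c, 19 for mmu-miR-30d and 2 for mmu-miR-30e.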

How the data were processed

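Per the labels' protocols, equal amounts of total RNA from both livers of a time were combined. The deposited spot intensities had been background-subtracted and detrended per the file headers, with Agilent Feature Extraction 10.7.3.1 (9.5.3.1 per the submitters' processing notes). Control spots and outlier spots (3.82% to 6.94% of an array) were left out, and no spot was saturated. Spots of a probe were averaged, and arrays were divided by their upper quartile (0.75) among 157 probes that every array detected. A floor of 22.2 was set before log2. The probe with the highest mean stood for an entry. Models were fitted to all 139 tested entries with limma 3.58.1 (R 4.3.3, intensity trend), with Benjamini-Hochberg adjustment at 0.05, and were tested on simulated data. Correlations used numpy 2.4.6 and 100000 two-sided shuffles, exact for slide 1. The groups were taken from collection times. Entries keep the array's own names. The members and lists were chosen with earlier results of these data known, and all members, their opposite strands, seed-sharing entries and the 2 most correlated entries were named. The marker lists were leukocyte, hepatocyte, red cell, neuronal, pancreatic, endothelial, striated muscle and mesenchymal. Alternatives changed the scaling, background, outlier spots, probe summary, filter, variance model, blocks and arrays. Normexp was run on median spot signals.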

Additional observations from a re-analysis of the deposited data

Results flagged for a closer look

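Within groups of 6 arrays, 14 groups of members and opposite strands were examined for a pool whose gap to its nearest neighbour was above Dixon's 95% critical value, and chance flags about 1 in 20 groups. Among light arrays, mmu-miR-30d at ZT50 read 118 intensity units, a gap of 0.748 of the group's range, and its second probe was also highest at ZT50, as were 20.2% of the 109 entries never at the floor. Among dark arrays, mmu-miR-30e* at ZT62 read 56.1 intensity units, a gap of 0.798 of the range, and its second probe was detected on 0 arrays.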

How the results depend on the processing

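No member passed the 4 tests across times and groups under the alternatives tried, the lowest adjusted p over members being 0.466 for the 24-h rhythm, 0.300 for dark against light, 0.530 for the time of day and 0.118 for the cycle (limma). All 135 rhythm and 140 time-of-day values of members kept their side of the threshold. Differences this near 0 changed sign often, in 28 of 140 dark-light and 17 of 135 cycle values of members, and the causes were not tested. All values below are log2 differences or counts.

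Dark against light, scaling on all probes gave 0.41, 0.43, 0.42, 0.37 and 0.38 for mmu-miR-30a to mmu-miR-30e and 0.38 for mmu-miR-30a*. Without scaling mmu-miR-30a, mmu-miR-30b, mmu-miR-30c, mmu-miR-30e and mmu-miR-30a* gave 0.040, 0.059, 0.056, 0.016 and 0.012. For mmu-miR-30b and mmu-miR-30c, quantile normalization gave 0.0060 and 0.0059, the median of detected probes 0.013 and 0.0095, scaling without the miR-30 probes 0.010 and 0.0071, total signal per miRNA 0.0027 and 0.0084, and leaving out ZT38 and ZT50, chosen after seeing the data, 0.0012 and 0.022. Normexp gave 0.029 for mmu-miR-30a, 0.022 for mmu-miR-30c and -0.37 for mmu-miR-30e*. For mmu-miR-30a*, the mean of all probes gave 0.00064, total signal 0.012, slide 1 alone 0.015, and leaving out ZT38 and ZT50 0.016. Leaving out single arrays gave -0.016 to 0.015 for mmu-miR-30b and -0.036 to 0.027 for mmu-miR-30c.

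For cycle 2 against cycle 1, mmu-miR-30c, mmu-miR-30d, mmu-miR-30a* and mmu-miR-30e* gave -0.52, -0.47, -0.47 and -0.47 with scaling on all probes, and -0.037, -0.025, -0.047 and -0.058 with slide as a block and on slide 1 alone. For mmu-miR-30c and mmu-miR-30e*, no scaling gave -0.030 and -0.026, quantile normalization -0.0030 and -0.048, and the median of detected probes -0.0098 and -0.0051. Normexp gave 0.046 for mmu-miR-30b, -0.013 for mmu-miR-30c and 0.063 for mmu-miR-30e. The mean of all probes gave 0.0055 for mmu-miR-30a. For mmu-miR-30e*, keeping outlier spots gave -0.025 and total signal -0.11. Leaving out ZT38 and ZT50 gave -0.020 for mmu-miR-30c, -0.0089 for mmu-miR-30d and -0.028 for mmu-miR-30e*. Leaving out single arrays gave -0.017 to 0.048 for mmu-miR-30c and -0.041 to 0.050 for mmu-miR-30e*.

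Counts of entries past the threshold rose from 0 to 1 in the rhythm test with normexp. In the time-of-day test they rose to 1 with normexp and 3 on slide 1 alone, and ranged from 0 to 8 without single arrays. The 8 arose without ZT26 and included mmu-miR-30c-2* (adjusted p 5.7e-10, limma), which was above the floor at ZT50 alone. The count was 2 without ZT46, and 1 without ZT54 or without ZT58. Dark against light, it ranged from 0 to 2, the 2 arising without ZT30. None of these entries was a member. The median SD of member ratios was 0.23 with normexp. Of the 10 member pairs, 10 passed with scaling on all probes, 7 without scaling and 3 with normexp, where 6415, 1348 and 5099 of all pairs passed. With the scaling used, 0 of the 10 member pairs and 41 of all 8778 pairs passed. The interaction test was run with no alternative. No paired analysis was possible because the collection times give no replicate numbers shared between the groups; clock times recur 24 h apart and entered as cycle. With 2 pools per clock time and dim opposite strands near the floor, differences smaller than the intervals were not detectable.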
